A study of Mus musculus with 14 samples.

Results

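The 10 genes described here encode the plasma apolipoproteins Apoa1, Apoa2, Apoa4, Apoa5, Apob, Apoc1, Apoc2, Apoc3, Apoe and Apom. They were chosen by gene symbol. All 10 were found among the 19660 genes of the liver count table, and 9 were found among the 20203 genes of the kidney count table. Apoa5 was not analysed here in kidney. RNA was sequenced from liver and kidney of adult male mice aged 12 weeks, which were transgenic for human angiotensinogen with the haplotype -6A. In both tissues a normal diet group, whose titles call it basal, was compared with a high salt diet group. The liver had 4 libraries per diet and the kidney had 3, so there were 14 libraries in all, made from total RNA with a SMARTer mRNA kit. All groups carried the transgene and no group without it was analysed here, and the labels give neither the salt content of the diet nor its duration. They also do not say whether the libraries of a group came from separate mice, so a p-value measures only the spread between these libraries.

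Apolipoproteins are the protein parts of the particles that carry cholesterol and triglyceride in blood. The liver is the main source of most of them, and some are also made in intestine, macrophages or kidney. Apob is the structural protein of very low density and low density lipoprotein, Apoa1 and Apoa2 are the main proteins of high density lipoprotein, and the smaller apolipoproteins switch lipases on or off or bind receptors. In the mouse genome 7 of the 10 genes lie in clusters. Apoa1, Apoc3, Apoa4 and Apoa5 lie within 43.3 kb of chromosome 9, and Apoc2, Apoc1 and Apoe lie within 27.6 kb of chromosome 7. The other genes lie alone, Apoa2 at chr1:171225054-171226379, Apob at chr12:7977648-8016835 and Apom at chr17:35128997-35132050 (GRCm38, GENCODE M21).

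The promoters of 3 genes are shown because the levels described below set these genes apart. Apoa2 had the highest liver level per kilobase of transcript, and Apob and Apom had the smallest differences between liver and kidney. Each sequence is the RefSeq window (GRCm38.p6) from 250 bases before a start site to 50 bases after it, read 5′ to 3′ on the gene's strand. Capitals mark matches on either strand to the motifs TATAAA (the TATA box), CCAAT (the CCAAT box), AGGTCA (a core of nuclear receptor sites), CAAAGTC (a core of Hnf4a sites) and CACGTG (an E-box), and no matches overlapped in these windows. The windows lie at chr1:171224804-171225103 (forward strand) for Apoa2, chr12:7977427-7977726 (forward strand) for Apob and chr17:35131752-35132051 (reverse strand) for Apom.
Apoa2: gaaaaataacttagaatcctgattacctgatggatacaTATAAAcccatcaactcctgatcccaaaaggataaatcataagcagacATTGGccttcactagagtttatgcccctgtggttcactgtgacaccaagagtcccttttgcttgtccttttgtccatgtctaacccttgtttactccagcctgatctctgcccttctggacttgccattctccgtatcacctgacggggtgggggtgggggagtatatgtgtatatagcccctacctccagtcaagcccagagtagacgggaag
Apob: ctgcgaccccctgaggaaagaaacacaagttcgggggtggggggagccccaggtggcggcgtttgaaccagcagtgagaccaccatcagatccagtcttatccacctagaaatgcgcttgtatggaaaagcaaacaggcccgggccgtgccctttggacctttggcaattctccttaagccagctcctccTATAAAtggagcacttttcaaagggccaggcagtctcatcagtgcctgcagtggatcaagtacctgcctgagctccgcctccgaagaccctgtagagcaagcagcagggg
Apom: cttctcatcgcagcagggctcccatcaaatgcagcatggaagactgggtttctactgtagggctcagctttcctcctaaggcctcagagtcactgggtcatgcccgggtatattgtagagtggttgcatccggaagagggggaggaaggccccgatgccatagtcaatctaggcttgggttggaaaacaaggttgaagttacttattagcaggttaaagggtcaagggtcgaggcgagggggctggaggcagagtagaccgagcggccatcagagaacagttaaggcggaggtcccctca
In the Apoa2 window TATAAA starts 212 bases before the start site and CCAAT matched the opposite strand 164 bases before it. In the Apob window TATAAA starts 60 bases before the start site. That RefSeq start lies 29 bases after the gene's start in GENCODE, so the match is nearer to the GENCODE start. The Apom window held none of the 5 motifs, and it is placed on a RefSeq start that lies 249 bases after the gene's start in GENCODE. Nearly all of this window therefore lies after the GENCODE start, and the sequence before that start was not searched. RefSeq windows were found for 8 of the 10 genes. TATAAA was present in 3 of the 8 (Apoa2, Apoa5 and Apob), against 13.6% of 32817 windows of the same length. CCAAT was present in 1 of the 8 against 37.4%, AGGTCA in 1 (Apoc2) against 16.3%, CACGTG in 1 (Apoa5) against 7.15%, and CAAAGTC in 0 against 4.44%. A match describes the letters of the window and not a site in use.

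Libraries of the same diet differed from each other. Liver libraries held 37267778 to 51487382 counts and kidney libraries 16046094 to 22004927, and mitochondrial genes took 2.06 to 29.6% of the counts in liver and 23.5 to 41.2% in kidney. Normal diet liver libraries 1 and 2 stood apart, with 2.30 and 2.06% mitochondrial counts against 11.3 to 29.6% in the other 6 liver libraries. In these libraries genes with transcripts under 1000 bases lay higher than genes with transcripts over 5000 bases, by 0.82 and 0.81 on the log2 scale relative to each gene's mean, and in the other 6 liver libraries this gap lay between -0.54 and 0.0071. The longest transcripts of the 10 genes run from 518 bases for Apoa2 to 13934 for Apob, with 1013 for Apom. The high salt liver columns are named HS5, HS6, HS7 and HS8, which matches none of the titled sample numbers. HS5 and HS6 were close to each other, with apolipoprotein levels 0.780 to 9.05% apart. Normal diet liver library 4 stood apart in other genes. Its acute phase genes summed to 73499 CPM (counts scaled to a common library size) against 5410 to 10188 CPM in the other 7, and its neutrophil markers to 53.9 CPM against 0.785 to 1.43. It was also the highest library for 7 of 10 macrophage markers. The 7 hepatocyte markers in liver summed to 46942 to 69812 CPM on the normal diet and 82422 to 100428 CPM on high salt, without overlap. That sum is mostly albumin (Alb, means 43963 and 74599 CPM), and the other markers did not all move in 1 direction. Lower means on high salt were found for Cyp2e1 (8136 and 4442 CPM), Asgr1 (697 and 506 CPM) and Tat (1371 and 779.5 CPM). Cps1 also had a lower mean (2265 and 2001 CPM). Higher means on high salt were found for G6pc (220 and 368 CPM) and for Ttr, the remaining marker. In kidney the sum of 946 to 1813 CPM was mostly Cyp2e1, with means of 963 and 1423 CPM, and Alb reached at most 35.7 CPM. The part of these differences in the apolipoprotein levels was not tested. The 7 proximal tubule markers summed to 23585 to 57937 CPM in kidney and to 46.6 to 88.1 CPM in liver.

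Per kilobase of their longest transcript, apolipoprotein mRNAs in normal diet liver spanned a range of levels from Apoa2 at 11176 ± 439 CPM per kilobase (SD, n = 4) to Apoa4 at 68.8 ± 45.2. Apoa2, the second protein of high density lipoprotein, lay above all others, and its lowest library was at 10672 CPM per kilobase. Apoc1, which slows the uptake of lipoproteins by their receptors, followed with 8230 ± 2349 CPM per kilobase. Apoe, the ligand through which remnant particles are taken up by the low density lipoprotein receptor family, was at 7169 ± 2271, and Apoa1, which activates the cholesterol-esterifying enzyme of plasma, was at 6391 ± 2563. The ranges of Apoc1, Apoe and Apoa1 overlapped, so their order is not resolved. Apoc3, an inhibitor of triglyceride clearance, was at 3039 ± 659 CPM per kilobase and did not overlap Apoa1 above it or Apoa5 below it. Apoa5, which promotes triglyceride hydrolysis, was at 435 ± 146, and Apoc2, the cofactor of lipoprotein lipase, was at 280.04 ± 39.5. Apom, a lipocalin that carries sphingosine 1-phosphate on high density lipoprotein, was at 214 ± 41.4, and Apob was at 151 ± 42.0. From Apoa5 down to Apoa4 each gene overlapped its neighbour in this order. With the median instead of the longest transcript length Apoe came first and Apoa2 second.

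**Figure D1:**
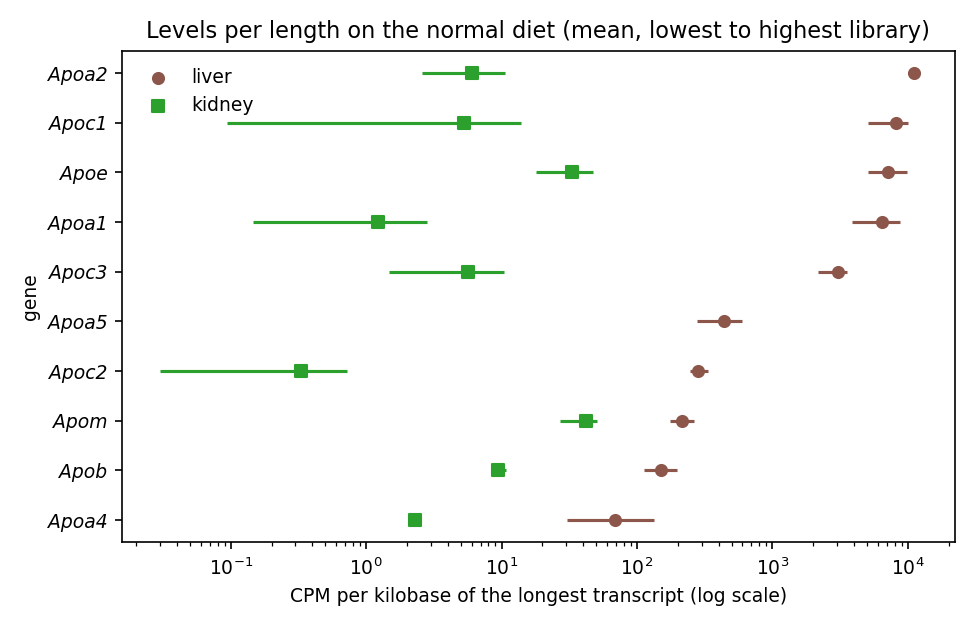
Normal diet levels of each apolipoprotein gene (vertical axis) in CPM per kilobase of the longest transcript (horizontal axis, log scale). Points are means over 4 liver or 3 kidney libraries, and lines run from the lowest to the highest library. The kidney line of Apoc2 starts at 0.03 because its lowest library was at 0. In liver Apoa2 lies highest, and in kidney Apom and Apoe lie highest.

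In kidney the same 9 genes had far lower levels and another order. Apom led with 42.2 ± 13.1 CPM per kilobase (SD, n = 3), followed by Apoe with 32.9 ± 14.6, and their ranges overlapped. With the median transcript length Apoe came first. Apob, at 9.41 ± 1.16 CPM per kilobase, was the third, and no library of it reached the lowest library of Apoe. The other 6 had means between 0.33 and 6.05 CPM per kilobase, in the order Apoa2, Apoc3, Apoc1, Apoa4, Apoa1 and Apoc2. From Apob down to Apoc2 each gene overlapped its neighbour, so this order is not resolved. With the median transcript length Apoc3 and Apoc1 came before Apoa2.

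All 8 genes that also passed the filter on low counts in kidney alone were higher in liver than in kidney on the normal diet (edgeR adjusted p under 0.05), a direction called for 32.9% of all 16633 genes tested. Apoc2 had no more than 10 counts in any kidney library and passed the filter only through the liver libraries, where it is high, so its difference is a description and is left out of this count. It was at 242 ± 41.8 CPM in liver and at most 0.429 CPM in kidney. Bulk RNA does not separate fewer cells of a type from less RNA per cell. On the scale of the fit over both tissues, Apom was at 259 ± 61.1 CPM in liver (SD, n = 4) and 34.9 ± 10.9 CPM in kidney (n = 3), which is a ratio of 7.42 and a log2 difference of 2.89 with an edgeR adjusted p of 1.27e-06. Apob was at 2478 ± 593 CPM in liver and 106.8 ± 13.03 CPM in kidney, a ratio of 23.2. These were the 2 smallest ratios, and Apoa4 followed with 43.2. The other log2 differences were 8.32 for Apoe, 9.62 for Apoc3, 11.18 for Apoc1, 11.40 for Apoa2 and 12.93 for Apoa1. Among liver libraries of both diets the apolipoproteins together took 1.95 to 3.95% of all counts, against 0.0199 to 0.0399% in kidney.

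The question put to the diets was whether high salt was accompanied by other apolipoprotein mRNA levels. In liver 0 of the 10 genes passed the edgeR test (adjusted p under 0.05), where 1.00% of the 15130 genes tested did. At an unadjusted p under 0.05 the count was 1 of 10, against 21.2% of all genes, and the diets did not overlap for 1 of 10, against 12.5% of all genes. Both counts were Apom. The log2 fold change was below 0 for 8 of the 10 and for 52.0% of all genes, with a median of -0.15 against -0.02 over all genes. DESeq2 called 1 of the 10 (Apom) where it called 7.42% of all genes, and limma's voom with library weights called 8 of the 10 where it called 54.8% of all genes.

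Apom in liver was at 232.5, 268.7, 188.7 and 177.6 CPM in normal diet libraries 1 to 4 and at 137.3, 140.9, 148.6 and 116.6 CPM in HS5 to HS8. Every high salt library lay below every normal diet library, and libraries 1 and 2 were the highest. The means were 217 ± 41.9 CPM and 136 ± 13.7 CPM (SD, n = 4 each). The log2 fold change was -0.67 (SE 0.18) with an edgeR adjusted p of 0.098 and an unadjusted p of 0.00351, the 541st smallest of all genes tested. The value stayed below 0 in all 19 alternatives, from -0.79 to -0.38, and the adjusted p ranged from 0.000395 to 0.283. It passed the threshold in 3 of them, which were DESeq2 (-0.68, adjusted p 0.0117), voom with library weights (-0.79, adjusted p 0.000395) and the edgeR fit without normal diet library 4 (-0.77, adjusted p 0.0496). With offsets for transcript length, which were chosen after seeing the data, it was -0.38 (SE 0.14, edgeR adjusted p 0.199), and without normal diet libraries 1 and 2 it was -0.43 (edgeR adjusted p 0.25).

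**Figure D2:**
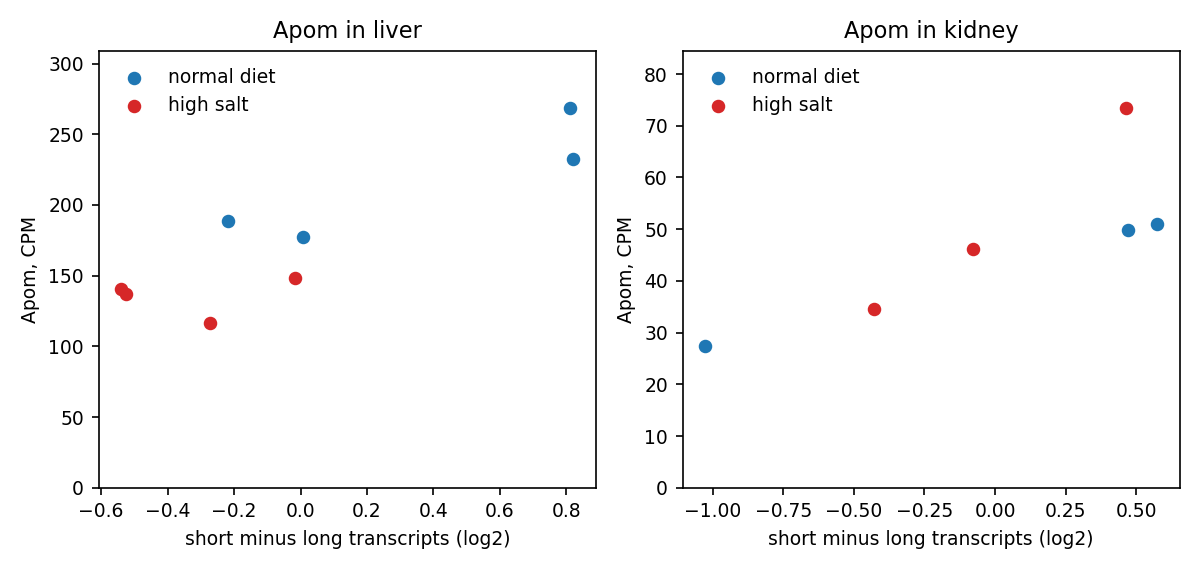
Apom in CPM (vertical axis, from 0) against the gap between short and long transcripts of each library on the log2 scale (horizontal axis), in liver on the left and kidney on the right, with 1 point per library coloured by diet. In liver normal diet libraries 1 and 2 lie far to the right. HS5, HS6 and HS8 lie to the left of library 3 at -0.22, and HS7 lies to its right at -0.017. All of these high salt libraries have less Apom than library 3.

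Apom is set here beside the length gap of each liver library. Libraries 1 and 2 had the largest gaps, the lowest mitochondrial shares and the most Apom. Library 4, without which Apom passed the threshold, was the library with the high acute phase and neutrophil sums. HS5 to HS8 had gaps of -0.53, -0.54, -0.017 and -0.27, with 137.3, 140.9, 148.6 and 116.6 CPM of Apom. Normal diet libraries 3 and 4 had gaps of -0.22 and 0.0071, with 188.7 and 177.6 CPM. The part of the length gap, of the mitochondrial share or of library 4 in the Apom difference was not tested. Over the 8 liver libraries the genes whose log2 CPM followed Apom most closely were Nedd8, Gm5512 and Gm7993. Their root mean square differences from Apom were 0.061, 0.079 and 0.080 after centring, among 12174 genes, where Apom itself varied by 0.38. Their log2 fold changes were -0.63, -0.66 and -0.78, and none passed the edgeR test. Because they were chosen for closeness to Apom over these same libraries, their similar fold changes follow from that choice.

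**Figure D3:**
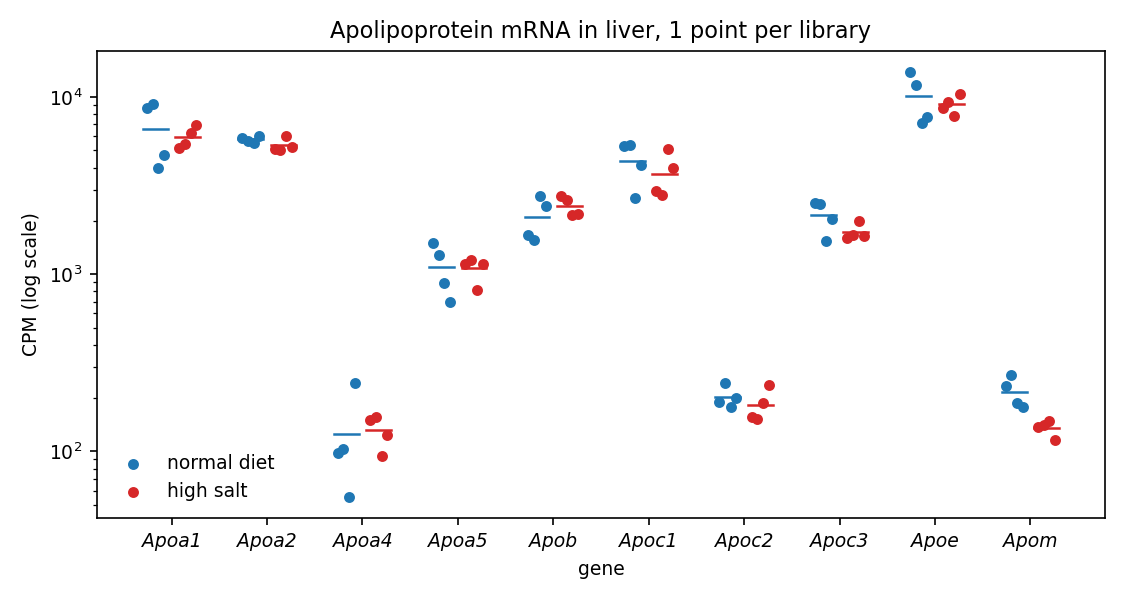
Liver levels of the 10 genes in CPM (vertical axis, log scale), with 1 point per library, coloured by diet, and a short line at the mean of each diet's 4 libraries. The diets overlap for every gene except Apom, whose high salt points all lie under its normal diet points.

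Among the proteins of high density lipoprotein, Apoa1 in liver was at 8695 and 9093 CPM in normal diet libraries 1 and 2, at 3984 and 4686 CPM in libraries 3 and 4, and at 5164, 5397, 6287 and 6918 CPM in HS5 to HS8. The high salt libraries lay inside the normal diet range. The log2 fold change was -0.15 (SE 0.32, edgeR adjusted p 0.804). Without normal diet libraries 1 and 2 it was 0.46. Apoa2 was the steadiest of the 10 on the normal diet, with 5909, 5682, 5528 and 6038 CPM in libraries 1 to 4 and 5067, 5027, 6026 and 5229 CPM in HS5 to HS8. Only HS7 lay within the normal diet range, and the log2 fold change was -0.12 (SE 0.21, edgeR adjusted p 0.769). Apoa4, a protein of chylomicrons and high density lipoprotein, was at 97.4, 102.6, 55.5 and 243.7 CPM on the normal diet and at 150.9, 156.7, 94.5 and 124.1 CPM on high salt. Library 4 held the highest value, and the same library had the most acute phase mRNA, with 73499 CPM over 13 genes against 7536 to 10188 CPM in normal diet libraries 1 to 3 and 5410 to 6549 CPM in the high salt libraries. The part of this in the Apoa4 level was not tested. The log2 fold change of Apoa4 was 0.07 (SE 0.39, edgeR adjusted p 0.931).

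The genes that act on lipases did not separate by diet either. Apoc3 in liver was at 2536, 2491, 1532 and 2059 CPM on the normal diet and at 1609, 1662, 2001 and 1648 CPM on high salt, with a log2 fold change of -0.32 (SE 0.22, edgeR adjusted p 0.434). Library 3 lay below all high salt libraries and the other 3 lay above them. Apoc2 was at 190.9, 244.2, 177.9 and 201.4 CPM on the normal diet and at 155.7, 152.3, 186.8 and 237.4 CPM on high salt, with a log2 fold change of -0.15 (SE 0.19, edgeR adjusted p 0.663). Apoa5 was at 1505, 1286, 895 and 693 CPM on the normal diet and at 1146, 1208, 816 and 1139 CPM on high salt. Its means were 1094 ± 368 and 1077 ± 177 CPM, and its log2 fold change was -0.02 (SE 0.27, edgeR adjusted p 0.97). The ratio of Apoc2 to Apoc3, the activator and the inhibitor of lipoprotein lipase, had log2 means of -3.39 ± 0.26 and -3.26 ± 0.31 (SD, n = 4 each). They differed by 0.13, with an exact two-sided permutation p of 0.657. A comparison of 4 with 4 libraries can give 0.0286 at the smallest.

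Apob in liver was at 1658 and 1569 CPM in normal diet libraries 1 and 2, at 2767 and 2428 CPM in libraries 3 and 4, and at 2758, 2615, 2163 and 2197 CPM in HS5 to HS8. Its 2 lowest values were in the libraries that were highest for Apoa1 and Apoe. The log2 fold change was 0.21 (SE 0.25, edgeR adjusted p 0.646), and without those libraries it was -0.09. Apoe was at 13846, 11642, 7165 and 7722 CPM on the normal diet and at 8635, 9416, 7823 and 10457 CPM on high salt, with a log2 fold change of -0.15 (SE 0.29, edgeR adjusted p 0.786). Without libraries 1 and 2 it was 0.29. Apoc1 was at 5293, 5375, 2706 and 4140 CPM on the normal diet and at 2954, 2812, 5067 and 3961 CPM on high salt, with a log2 fold change of -0.24 (SE 0.30, edgeR adjusted p 0.662). Its values ranged 1.99 times from lowest to highest on the normal diet and 1.80 times on high salt. The ratio of Apoe to Apob was 8.35, 7.42, 2.59 and 3.18 in normal diet libraries 1 to 4 and 3.13, 3.60, 3.62 and 4.76 in HS5 to HS8. Its log2 means differed by -0.35 (exact two-sided permutation p 0.429), and the ratio of Apoa4 to Apoa1 differed by 0.33 (exact p 0.686). Over the 4 ratios tested in both tissues each p was 0.686 after Benjamini-Hochberg adjustment.

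**Figure D4:**
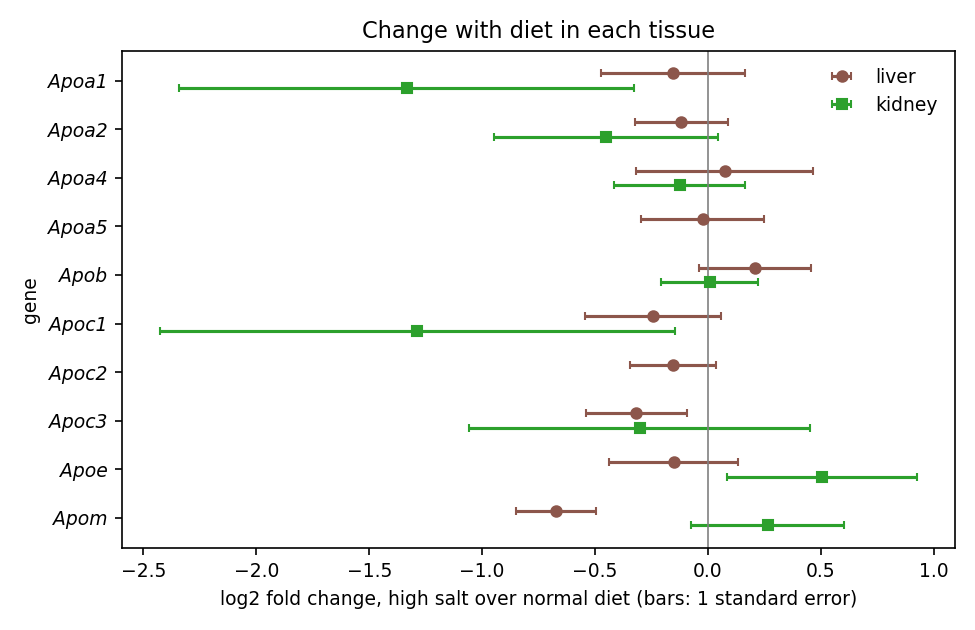
Log2 fold change of high salt over normal diet (horizontal axis) for each gene (vertical axis) in liver and kidney, with bars of 1 standard error from the edgeR fit. Apom in liver lies at -0.67, and the widest kidney bars are those of Apoa1 and Apoc1.

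With the transcript length offsets 8 of the 10 liver fold changes changed sign, which were all but those of Apoa4 and Apom. They became 0.18 for Apoa1, 0.22 for Apoa2, 0.10 for Apoa5, -0.26 for Apob, 0.12 for Apoc1, 0.19 for Apoc2, 0.05 for Apoc3 and 0.12 for Apoe. The direction of these 8 genes between the diets is therefore not settled by these libraries. Nor is that of Apoa4, which turned to -0.18 without normal diet libraries 1 and 2. Counting may also have split reads between overlapping genes. Apoa4 overlaps the span of Gm47528 and the antisense Gm10680, Apoa5 overlaps the antisense Gm47544, and Apoc2 overlaps the protein-coding Gm44805 on its own strand. Expected counts that are not whole (within 1e-09) can come from reads shared between features. The liver counts were whole in 0 of 8 libraries for Apoa4 and Apoc2 and in 1 of 8 for Apoa5 and Apoc3, so the levels of these genes are uncertain, although no gene was found to overlap Apoc3. They were whole in 6 of 8 for Apob, 7 of 8 for Apoc1 and 8 of 8 for Apom, Apoa1, Apoa2 and Apoe. In kidney they were whole in 1 of 6 libraries for Apob and 2 of 6 for Apoa4, Apoc2 and Apoe. Gm47544 held 1163 counts in normal diet library 3, beside 28445 of Apoa5, and at most 165 in the other 7 liver libraries. Gm44805 held 1597, 1167, 491 and 761 counts in normal diet libraries 1 to 4, beside 8030, 8964, 5655 and 8379 of Apoc2. In HS5 to HS8 it held 586, 660, 634 and 832 counts, beside 8770, 7348, 8988 and 13440 of Apoc2. The part of this in the Apoc2 level and in its ratio to Apoc3 was not tested.

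In kidney 0 of the 8 genes tested passed the edgeR test, as did 0.00% of all 15847 genes, and 0 of the 8 reached an unadjusted p under 0.05, against 2.01% of all genes. The diets overlapped for all 8, and 6.92% of all genes did not overlap. DESeq2 and voom also called 0 of the 8, where they called 0.0694% and 0.00% of all genes. Each edgeR adjusted p was 0.9996. Apom was at 27.5, 49.9 and 50.98 CPM in normal diet libraries 1 to 3 and at 34.6, 73.5 and 46.2 CPM in high salt libraries 1 to 3, with a log2 fold change of 0.26 (SE 0.34). The lowest value of each diet was in library 1. These libraries also had the lowest proximal tubule marker sums of their diet, at 23585 and 31670 CPM. The single markers did not all follow the sums, and each of these libraries was the highest of the 6 for 2 of the 7 markers. Normal diet library 1 also had the lowest length gap of the 6, at -1.03. The part of either in the Apom level was not tested.

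Apoe in kidney was at 25.1, 66.3 and 47.4 CPM on the normal diet and at 53.9, 42.3 and 100.7 CPM on high salt, with a log2 fold change of 0.51 (SE 0.42). The diets overlapped. Apoe is also a macrophage product, and 8 of the 10 macrophage markers in the table summed to 55.5 to 171 CPM on the normal diet and 66.5 to 105 CPM on high salt. Their part in the Apoe level was not tested. Apob varied little in kidney, by 1.27 times from lowest to highest on the normal diet and 1.38 times on high salt. It was at 149.0, 117.7 and 126.5 CPM on the normal diet and 123.7, 114.1 and 157.6 CPM on high salt, with a log2 fold change of 0.0083 (SE 0.21). The log2 ratio of Apoe to Apob was higher on high salt by 0.51, with an exact two-sided permutation p of 0.5, and 3 against 3 libraries cannot give less than 0.1.

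**Figure D5:**
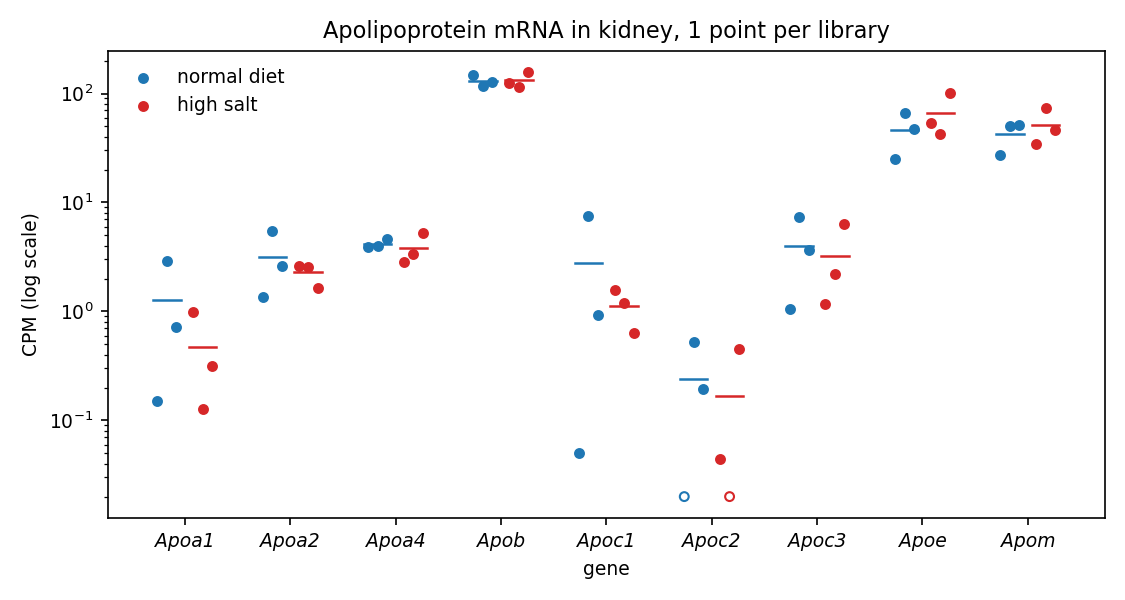
Kidney levels of the 9 genes in CPM (vertical axis, log scale), with 1 point per library, coloured by diet, and a short line at the mean of each diet's 3 libraries. Open circles drawn at 0.02 CPM are libraries with 0 counts of Apoc2, and the diets overlap for every gene.

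The other kidney levels were low and uneven. Apoc1 had 1, 127 and 19 counts in normal diet libraries 1 to 3 and 35, 19 and 14 counts in high salt libraries 1 to 3. Apoa1 had 3, 50 and 15 counts on the normal diet and 22, 2 and 7 on high salt. Normal diet library 2 was the highest for both, and it was the highest of the 6 libraries for 5 of the 9 apolipoproteins. It was also the highest for 7 of 14 other secreted genes that are abundant in liver, among them albumin (Alb), which was at 2.70, 35.7 and 10.9 CPM on the normal diet and at 9.96, 4.79 and 5.001 CPM on high salt. The summed level of those 14 genes was 136.8, 134.9 and 91.2 CPM in normal diet libraries 1 to 3 and 139 to 147 CPM on high salt. In normal diet library 1, 2 of the 14 genes were at 0 and Alb was at 2.70 CPM, so most of that sum came from other genes than Alb. The part of liver RNA in these levels was not tested. The log2 fold changes were -1.33 (SE 1.01) for Apoa1 and -1.29 (SE 1.14) for Apoc1. Each standard error was nearly as large as the difference. From lowest to highest library, Apoa1 ranged 19.5 times on the normal diet and 7.80 times on high salt. Apoc1 ranged 149 times on the normal diet and 2.46 times on high salt. Apoa2 was at 1.35, 5.45 and 2.61 CPM on the normal diet and at 2.63, 2.58 and 1.64 CPM on high salt, with a log2 fold change of -0.45 (SE 0.50). Apoc3 was at 1.05, 7.38 and 3.63 CPM and at 1.16, 2.21 and 6.32 CPM, with a log2 fold change of -0.30 (SE 0.75). Apoa4 was steadier, at 3.90, 3.98 and 4.60 CPM and at 2.86, 3.34 and 5.23 CPM, with a log2 fold change of -0.13 (SE 0.29). Apoc2 had 0 counts in 1 library of each diet and was not tested in kidney. A count of 0 there allows a level of up to 0.150 CPM in normal diet library 1 and 0.189 CPM in high salt library 2, for counting error only.

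The difference between the diet effects of the tissues was tested as an interaction over the 9 shared genes. Apoc2 entered this fit only through its liver libraries, and its kidney counts of 0 to 10 leave its interaction unread. In edgeR 0 of the 9 passed, as did 0.00% of all 16633 genes, and 1 of the 9 reached an unadjusted p under 0.05, against 10.1% of all genes. That gene was Apom, whose change in liver minus its change in kidney was -0.94 on the log2 scale (SE 0.40, edgeR adjusted p 0.463, unadjusted p 0.0331). Over 22 alternatives it ranged from -1.16 to -0.59, and the adjusted p from 0.268 to 0.739. A difference between liver and kidney in the response of these genes to the diet was therefore not shown.

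Genes that act with the apolipoproteins were described by a list of 86, of which 79 were tested in liver. In liver 1 of the 79 passed the edgeR test (1.27%, against 1.00% of all genes). This was Pltp, the phospholipid transfer protein that remodels high density lipoprotein, which rose with high salt. The mean went from 6.95 ± 0.894 CPM to 52.9 ± 25.4 CPM (SD over 4 libraries per diet). Its normal diet libraries lay between 5.76 and 7.76 CPM and its high salt libraries between 19.3 and 80.7 CPM. The log2 fold change was 2.93 (SE 0.37, edgeR adjusted p 0.013). The value lay between 2.65 and 3.19 in 19 alternatives and passed the threshold in 16 of them. It did not pass without HS6 (2.87, edgeR adjusted p 0.0544), with HS5 and HS6 summed (2.90, adjusted p 0.0527) or without normal diet libraries 1 and 2 (2.97, adjusted p 0.0769).

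No other gene of the list passed the edgeR threshold in liver. Of the list, 31 of 79 reached an unadjusted p under 0.05 (39.2%, against 21.2% of all genes), 13 with a higher and 18 with a lower level, and the median log2 fold change was 0.04. By role these were 12 of 22 other apolipoproteins and carried proteins, 7 of 11 genes of particle assembly, 1 of 6 lipases and partners, 4 of 14 receptors and efflux genes and 7 of 26 regulators. Among the receptors Vldlr had a log2 fold change of 1.95 (SE 0.42, edgeR adjusted p 0.0661) and Lrp2, the endocytic receptor megalin, 1.41 (SE 0.35, adjusted p 0.0852). Among the regulators the lipid-sensing receptor Pparg had 0.94 (SE 0.23, edgeR adjusted p 0.0827). Of the assembly genes Pla2g12b had -0.79 (SE 0.25, edgeR adjusted p 0.141) and Pdia3 -0.54 (SE 0.18, adjusted p 0.146), and Gpihbp1, which holds lipoprotein lipase on capillaries, had -0.43 (SE 0.15, adjusted p 0.157). In kidney 0 of 65 tested genes of the list passed, as did 0.00% of all genes. An unadjusted p under 0.05 was reached by 2 (3.08%, against 2.01% of all genes). These were Apoh, with a log2 fold change of 1.1997 (SE 0.32, edgeR unadjusted p 0.00552), and Mttp, which loads lipid onto Apob, with 0.53 (SE 0.20, unadjusted p 0.0303).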

How the data were processed

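Samples were grouped by tissue and diet from the labels. The 4 high salt liver columns carry no titled number and served as replicates without one. What the authors deposited are expected counts per gene, which the file headers and names trace to an expectation-maximisation step. Normalized values were deposited by the authors too, as a linear signal; the kidney table of them lists another set of 24399 genes, and the method is not given in the sources used here. Partek 7.0, STAR 2.5.3a, DESeq2 and mm10 are named in the submitters' processing notes without their roles. No per-sample column was left out (0 unused).

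Counts were rounded, filtered with filterByExpr, scaled by TMM and fitted in edgeR 4.0.16 (R 4.3.3, quasi-likelihood F test), separately per tissue and with diet as the single term, without a replicate block. Interaction and tissue contrasts came from a joint model of the 14 libraries on 17600 shared genes. A call is a Benjamini-Hochberg adjusted p-value under 0.05 over all genes. CPM values rest on TMM library sizes. Alternatives used DESeq2 1.42.0 and limma 3.58.1, with pseudocounts of 1 and 0.1 for the normalized signal. The fits were tested on simulated data. Coordinates and transcript lengths are from GENCODE M21 (GRCm38), where 97.8% of liver and 97.7% of kidney genes were found by name.

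The genes and lists were chosen with earlier results of these data known. All 10 apolipoproteins are named. Pathway genes are named by role and tissue where called, otherwise among the 2 with the smallest p-values. A regulator that this rule takes is not reported here. The 3 genes nearest to Apom in liver had a mean of at least 50 counts. Biological variation between libraries (edgeR's common coefficient) was 0.314 for liver and 0.30 for kidney. The limit that a count of 0 allows reflects counting error alone, because reads carried no molecular identifiers.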

Additional observations from a re-analysis of the deposited data

Results flagged for a closer look

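Apoc3 in liver stood out in HS7, where it was at 2001 CPM while the other 3 high salt libraries lay between 1609 and 1662 CPM. The gap to the nearest library was 0.866 of the range of the 4 libraries, above the 95% critical value for 4 samples. Of 20 groups of 4 liver libraries checked over 10 genes, 1 stood out in this way, and chance gives about 1.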

How the results depend on the processing

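The liver count of 0 apolipoprotein genes past the threshold became 1 with DESeq2, where 7.42% of all genes were called, and 8 with voom and library weights, where 54.8% were. It lay between 0 and 1 when 1 library was left out (1 without normal diet library 4, where 2.68% of all genes were called). The pathway count of 1 in liver became 11 with DESeq2, 57 with voom, 3 with the transcript length offsets chosen after seeing the data, 0 with HS5 and HS6 summed and 0 without normal diet libraries 1 and 2. It lay between 0 and 12 when 1 library was left out (12 without normal diet library 3, 5 without library 4, 0 without HS6). The calls over all genes moved too, from 1.00% to 0.886% with the offsets, 0.0779% with HS5 and HS6 summed, 0.327% without libraries 1 and 2, 4.94% without library 3 and 0.0779% without HS6. Counts in kidney (0), for the interaction (0) and between tissues (9, with Apoc2, which passed the filter only through liver) kept their side of the threshold in the alternatives run. The replicate block left 0 apolipoproteins called in kidney and 9 between tissues on the normal diet. In kidney it raised the genes of any kind at an unadjusted p under 0.05 to 459. Same-numbered kidney libraries correlated by 0.41, 0.37 and -0.09, and 2 of 3 kidney normal diet libraries correlated best with their own number. Same-numbered liver and kidney libraries correlated by -0.22, 0.19 and -0.17. With so few libraries these values do not settle whether the numbers pair the libraries. No paired analysis was possible in liver because the high salt columns carry no titled number. Other log2 changes turned direction. Without normal diet libraries 1 and 2, liver changes were 0.46 for Apoa1, -0.18 for Apoa4, 0.44 for Apoa5, -0.093 for Apob, 0.11 for Apoc1 and 0.29 for Apoe, and interactions were -0.035 for Apob and 0.31 for Apoc3. With length offsets, the liver changes of 8 genes turned as given above (Apoa1 0.18, Apoa2 0.22, Apoa5 0.10, Apob -0.26, Apoc1 0.12, Apoc2 0.19, Apoc3 0.051, Apoe 0.12), and interactions were -0.39 for Apob and 0.057 for Apoc3. With HS5 and HS6 summed, Apoa4 in liver was -0.0084 and the Apoc3 interaction 0.017. Apoa5 in liver was 0.0052 over genes with 10 counts in every library and 0.014 on the deposited normalized signal with either pseudocount, where Apoc1 in kidney was 0.34 (pseudocount 1) and 0.59 (pseudocount 0.1). Apom in kidney was -0.11 with voom. With 1 library left out, liver changes ranged from -0.35 to 0.034 for Apoa1, -0.18 to 0.61 for Apoa4, -0.20 to 0.16 for Apoa5 and -0.30 to 0.028 for Apoe. Kidney changes ranged from -2.40 to 0.15 for Apoa1, -0.81 to 0.20 for Apoa2, -0.43 to 0.051 for Apoa4, -0.14 to 0.11 for Apob, -1.86 to 1.202 for Apoc1, -1.26 to 0.46 for Apoc3 and -0.083 to 0.49 for Apom. Interactions ranged from -0.33 to 2.23 for Apoa1, -0.31 to 0.70 for Apoa2, -0.022 to 0.73 for Apoa4, -1.46 to 1.61 for Apoc1, -0.99 to 2.77 for Apoc2 and -0.78 to 0.93 for Apoc3. The log2 ratio of Apoc2 to Apoc3 in liver ranged from -0.027 to 0.22. The causes were not tested. Kidney counts under about 10 limit Apoc2.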
